A study of Arabidopsis thaliana with 34 samples.

Results

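The NBS-LRR disease resistance genes of Arabidopsis thaliana encode intracellular immune receptors with a nucleotide-binding domain, called NBS or NB-ARC, and usually a run of leucine-rich repeats (LRR). Nuclear protein-coding genes were taken as members when the product or note in the TAIR10.1 annotation contains NBS-LRR or NB-ARC, which gave 190 of 27444 genes. Of these, 140 were found by the product and 50 by the note alone. By the same wording, 126 belong to the TIR-NBS class, 38 to the CC-NBS class and 26 to neither. Chromosome 5 holds 69 members, chromosome 1 holds 58, chromosome 4 holds 39, chromosome 3 holds 18 and chromosome 2 holds 6. The genes are 552 to 8171 bp long, with a median of 3908 bp against 2078 bp over all protein-coding genes. A member was called clustered when the gap to the nearest other member was at most 50 kb, which held for 141 members in 43 clusters, 21 of them pairs, and left 49 single members. Each gene was measured over a window of the gene and 2 kb on both sides, and the windows of all members together span 1308 kb.

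NBS-LRR receptors detect pathogen effectors, or the modified host proteins that such effectors leave behind, and then trigger a defence response that often ends in local cell death. TIR receptors signal through EDS1 and its partners, many CC receptors need NDR1, and members of the ADR1 family act downstream as helpers of other receptors. Too much receptor activity stunts the plant, and the genes often sit in tandem arrays next to transposable elements. In RNA-directed DNA methylation (RdDM), RNA polymerase V makes the transcripts on which small RNAs guide DNA methylation. NRPE1 is the largest subunit of that polymerase, and DMS3 is one of the proteins that bring it to chromatin. H1 is the linker histone that compacts chromatin, H3K9me2 is a histone mark of heterochromatin, and SUVH1 is a protein that binds methylated DNA.

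The study asked whether H1 keeps RdDM out of heterochromatin, by ChIP-seq of Col-0 plants, and 18 of its peak lists, from 9 pairs of an antibody and a genotype with 2 libraries each, were analysed here. NRPE1 was precipitated in WT, in the h1 double mutant (h1.1-1 h1.2-1) and in ZF108DMS3, a homozygous transgenic line that expresses DMS3-3xFLAG fused to a zinc finger in Col-0 WT. H1 was precipitated in WT, nrpe1 (nrpe1-11) and ZF108DMS3, and H3K9me2 in WT and h1. SUVH1-3xFLAG was precipitated with an antibody to FLAG from a line with the SUVH1-3xFLAG transgene in the h1 double mutant, with no other genotype beside it. The labels name no treatment. The protocol names pools of seedlings aged 10 to 12 days on agar plates as the material, while the sample labels name floral tissue, and peak lists hold no expression with which to check either. H1 and NRPE1 were precipitated from the same chromatin in ZF108DMS3. No NRPE1 ChIP in nrpe1 and no H1 ChIP in h1 was analysed here, so the lists used hold no check of a mutant with the antibody to the protein it lacks. For h1, the study reports a western blot with its ChIP antibodies that detected H1 in WT and not in the mutant.

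The lists held 6918 to 25522 peaks. NRPE1 peaks covered 11.4% and 11.6% of the nuclear genome in WT, 19% and 17.8% in h1 and 6.04% and 6.32% in ZF108DMS3 (replicates 1 and 2). H1 peaks covered 11.8% to 13.2%, H3K9me2 peaks 10.9% to 13.0% and SUVH1 peaks 6.16% and 7.77%. The lists give no read counts, so the depth of each library is unknown. A window under peaks measures where enrichment passed the threshold, and its value can move with the depth of a library. At 2 libraries against 2, an exact permutation test cannot give a two-sided p below 0.33. No difference below can therefore pass a threshold of 0.05, and each is set beside the gap between replicates. The study calls the replicates biological for NRPE1 in WT and h1 and for H1 in WT and nrpe1. For the other groups the gap, and p-values with it, may measure technical spread only. The study states that only uniquely mapping reads without mismatch were kept, which matters for near-identical receptor genes. In 21 members (11.1%), fewer than 80% of the 50-base windows of the gene occur once in the genome, against 3.34% of all protein-coding genes. The share was 0% in AT1G58807, AT1G59124 and AT1G59218, 0.932% in AT1G58848, 32.4% in VICTR, 52.8% in RPP5, 53.5% in RPP1 and 78.6% in SNC1. Even so, NRPE1 peaks of either WT library covered 2936 bases of the window of AT1G58807 and 2870 of that of AT1G59124, of which 0% start a unique 50-base window, and 4013 bases at AT1G59218 and 4028 at AT1G58848, with 1.25% and 1.24%. For reads of 50 bases this goes against the stated filter, and whether longer or paired reads were unique there was not tested, so the values of these 4 genes may belong to another copy.

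To show what NRPE1 sat on, 200 bases around the midpoint of a pair of replicate summits are given for 5 members on which the results turn. They are read 5′ to 3′ on the strand of the gene from TAIR10.1, with CG in capitals. CG is a site of symmetric DNA methylation, but plants also methylate cytosines outside CG. RMG1 (chr4:6812837-6813036, + strand, intron) and RPP4 (chr4:9488261-9488460, − strand, just downstream of the gene) show the strongest WT summit in each window. AT4G09360 (chr4:5938470-5938669, + strand, upstream) and AT4G04110 (chr4:1972698-1972897, + strand, intron) show the strongest summits of the members with the largest NRPE1 difference in h1. AT5G45490 (chr5:18429662-18429861, + strand, intron) shows a summit of ZF108DMS3 without a counterpart in WT.
RMG1: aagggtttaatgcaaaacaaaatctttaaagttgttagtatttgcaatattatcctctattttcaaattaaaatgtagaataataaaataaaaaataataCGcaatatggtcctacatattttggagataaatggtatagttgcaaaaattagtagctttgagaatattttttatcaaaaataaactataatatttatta
RPP4: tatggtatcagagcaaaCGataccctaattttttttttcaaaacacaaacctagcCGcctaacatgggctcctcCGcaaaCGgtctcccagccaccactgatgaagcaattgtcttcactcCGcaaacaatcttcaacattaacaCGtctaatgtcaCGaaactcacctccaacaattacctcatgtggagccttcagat
AT4G09360: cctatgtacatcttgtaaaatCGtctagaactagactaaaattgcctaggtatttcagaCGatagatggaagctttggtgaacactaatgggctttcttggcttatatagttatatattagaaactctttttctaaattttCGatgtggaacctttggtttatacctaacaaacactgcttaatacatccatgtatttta
AT4G04110: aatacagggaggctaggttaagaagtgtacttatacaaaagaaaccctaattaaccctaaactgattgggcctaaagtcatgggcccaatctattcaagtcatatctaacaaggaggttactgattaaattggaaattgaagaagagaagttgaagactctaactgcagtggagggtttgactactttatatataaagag
AT5G45490: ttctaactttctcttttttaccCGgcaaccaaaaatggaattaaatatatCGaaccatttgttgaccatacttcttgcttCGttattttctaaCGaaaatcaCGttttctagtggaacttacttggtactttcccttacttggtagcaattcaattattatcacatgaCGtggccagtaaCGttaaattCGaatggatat

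The RMG1 stretch holds 1 CG and has a GC content of 20.5%, the AT4G04110 stretch holds 0 CG at 36.5% GC, and the AT5G45490 stretch holds 8 CG at 34% GC. Over 595730 windows of 200 bases that tile the genome, 95.2% hold a CG on either strand, with a median of 4 and a median GC content of 36.5%. Over all NRPE1 summits in member windows, the median GC content of 200 bases was 31.5% to 35% across the 6 lists, and over H1 summits it was 40.5% to 42%. NRPE1 summits were thus poorer in GC than H1 summits in these windows, and the medians over all peaks of these lists were 32.5% to 36% and 40% to 40.5%.

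In WT, 8.72% and 9.16% of the receptor windows lay under NRPE1 peaks. A peak in both WT lists was found for 94 members (49.5%), against 39.4% of all protein-coding genes, whose median length is lower, and the part of length in this was not tested. Among members with a peak, the median share of the window under peaks was 15.3% and 15.4%, and the highest values belonged to AT4G09360 in replicate 1 (55.3%) and RPP4 in replicate 2 (55.4%). The members with the highest means were AT5G47260 (51.0%), AT4G09360 (48.1%), RPP4 (47.7%), LAZ5 (46.6%) and ADR1-L3 (44.4%). RPP4 is a receptor for downy mildew, LAZ5 a receptor required for the runaway cell death of a lipid-transfer mutant, and ADR1-L3 a short relative of the ADR1 helpers. The flanks carried most of the signal, with 13.9% and 14.8% of the 2 kb upstream, 3.63% and 3.96% of the gene and 11.9% and 12.2% of the 2 kb downstream under peaks. In contrast, RPS4, RPS6, RPM1, RPP13, ZAR1, ADR1-L2, RLM1, LOV1, SUMM2, CHS1 and VICTR had no NRPE1 peak in either WT list. RPP13, another downy mildew receptor, was one of 9 members without a peak in any of the 18 lists (4.74%, against 13.2% of all protein-coding genes).

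**Figure D1:**
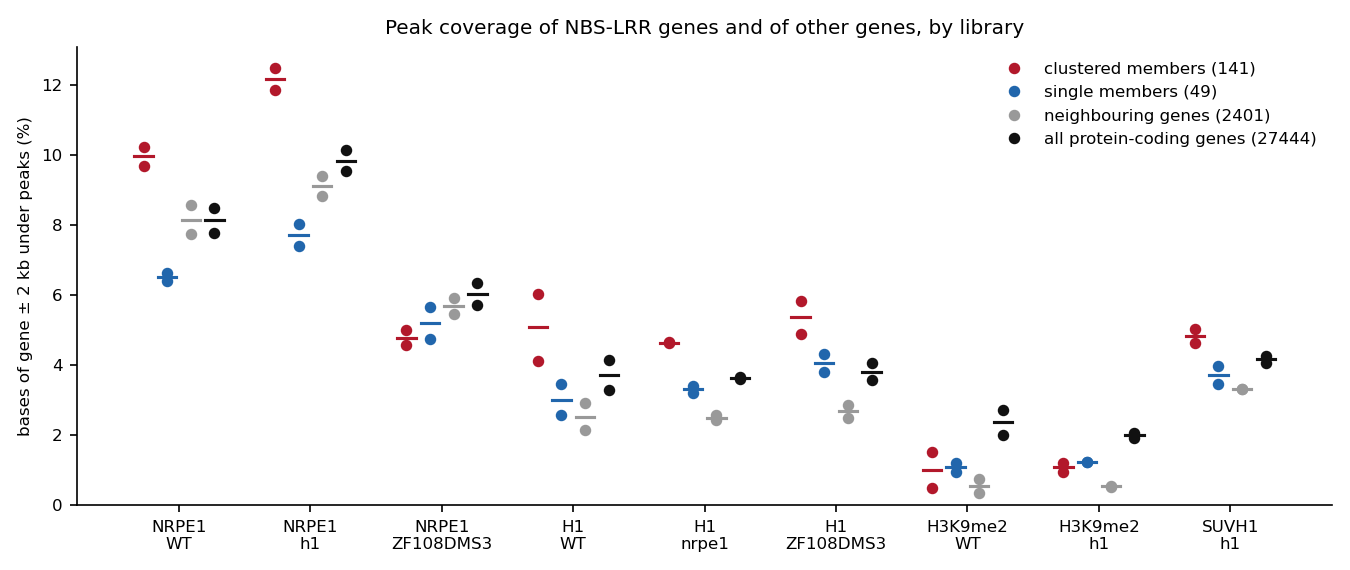
Bases of the gene ± 2 kb under peaks (%) in each library, for clustered members (red), single members (blue), other protein-coding genes within 50 kb of a member (grey) and all protein-coding genes (black). Points are libraries and bars are means of 2. In the NRPE1 lists of WT and h1 the clustered members sit above the other sets, at 9.70% and 10.2% (WT) and 12.5% and 11.9% (h1), while in ZF108DMS3 they sit at 4.58% and 4.99%.

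In h1, NRPE1 peaks covered more of the receptor windows than in WT. Most members with a peak in h1 already had one in WT, as did most genes at large. The covered share was 11.2% and 10.5% in h1 against 8.72% and 9.16% in WT, or 10.8% ± 0.442 against 8.94% ± 0.310 (SD, n = 2 each). The difference of 1.90 percentage points is larger than the distance between replicates, at 0.439 points for WT and 0.625 points for h1. By an exact permutation test, two-sided, p was 0.33, the smallest possible, and 0.833 after adjustment over the 5 comparisons of genotypes. The ratio of h1 to WT was 1.21 for members, 1.21 for all protein-coding genes, 1.12 for the 2401 other genes within 50 kb of a member and 1.60 for the nuclear genome. A total of 102 members (53.7%) had a peak in both h1 lists, against 41.4% of all genes. In 49 members (25.8%) both h1 libraries lay above both WT libraries, and in 28 (14.7%) both lay below, against 16.2% and 11.5% of all genes. Only 3 members were gained, that is, had a peak in both h1 lists and in neither WT list (2.29% of all genes). These were AT1G50180, AT1G61180 and AT5G46510, of which the last pair are among the 21 members with few unique 50-base windows. The single lost member, for which the rule was reversed, was AT5G51630 (1.16% of all genes). Without any one library, the count of gained or lost members was 6 to 9, since fewer lists then have to meet the rule.

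Fold enrichment was also higher in h1. Over the 92 members with a peak in all 4 lists, the median of the highest fold enrichment in a window was 4.63 and 6.90 in WT against 7.98 and 9.27 in h1. The median fold over all peaks of these lists, in or outside the receptor windows, was likewise lower in WT, at 2.89 and 3.33, than in h1, at 3.64 and 4.05. The WT replicates lay almost as far apart as the genotypes, and fold enrichment moves with the depth of a library.

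The largest differences in h1 were found at 8 members, all clustered except AT4G04110. NRPE1 covered 19.4% and 9.02% of the window of AT4G04110, a single TIR-NBS gene, in WT against 52.6% and 54.4% in h1. It covered 55.3% and 40.8% of the window of AT4G09360, a TIR-NBS gene, in WT against 87.0% and 82.7% in h1. At AT5G47260, a CC-NBS gene, the values were 53.1% and 48.8% in WT against 75.9% and 75.5% in h1. These members were chosen among those where both h1 libraries lay above both WT libraries, so the lack of overlap is no result. The neighbouring ADR1-L3 had 49.6% and 39.3% in WT against 68.0% and 66.6% in h1. AT5G47260 and ADR1-L3 lie under one NRPE1 peak in both h1 libraries, from 19189123 to 19195507 on chromosome 5 in replicate 1, where both WT libraries had several peaks, so these members share their signal. AT4G16900 of the RPP4 array had 11.4% and 12.3% in WT against 40.2% and 35.3% in h1. AT5G41750 was nearly free of NRPE1 in WT, at 3.35% and 0%, and had 23.6% and 22.7% in h1. AT5G35510 and AT4G09430 completed the set, with differences of 25.3 and 24.4 points. For AT5G35510 the direction turned over the gene alone, where the difference was −6.0 points.

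Of the receptors of known function, ADR1, the founding helper, had 19.5% and 25.1% of its window under NRPE1 peaks in WT against 31.6% and 29.6% in h1. ADR1-L1 had 24.3% and 23.6% in WT against 31% and 29.2% in h1. RPP5, a downy mildew receptor of the RPP4 array, had 8.95% and 10.4% in WT against 17.3% and 16.2% in h1. SNC1, whose overactive form causes constitutive defence, had 3.00% and 0% in WT against 11.6% and 9.36% in h1. At each of these 4 genes both h1 libraries lay above both WT libraries. RRS1, which works in a pair with RPS4 against bacterial effectors, had 2.68% and 2.61% in WT against 5.46% and 4.02% in h1. CSA1 and CHS3, a further receptor pair, had 4.67% and 9.94%, and 3.57% and 4.17%, in WT, and 4.14% and 3.93%, and 2.97% and 3.59%, in h1. At RPP1, a downy mildew receptor, the direction was the opposite, with 15% and 17.1% in WT against 12.4% and 12.1% in h1. Of the bases under these NRPE1 peaks at RPP5, 17.5% in WT and 34.8% in h1 start a unique 50-base window. At SNC1 these shares were 42.3% and 58.5%, and at RPP1 42.9% and 46.9%. Part of the values of RPP5, SNC1 and RPP1 may therefore belong to another copy. RPS2, which guards the host protein RIN4, had 0% and 3.07% in WT against 0% in both h1 lists.

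RMG1, a TIR-NBS gene, is annotated as a receptor whose expression is controlled by DNA methylation of its promoter, which the demethylase ROS1 removes. It lay among the members with a lower NRPE1 share in h1, with 26.9% and 25.7% of the window under peaks in WT against 19.7% and 17.3% in h1. The intronic peak whose sequence is given above was present in all 4 lists, at a fold enrichment of 8.54 and 14.9 in WT against 11.1 and 16.9 in h1. The peak near 6815113 to 6815663 inside RMG1 was listed in both WT libraries and in neither h1 library, and a peak overlapping it was listed in both ZF108DMS3 libraries. Weak upstream peaks of RMG1, at folds between 2.01 and 2.99, were present in WT and in h1. In ZF108DMS3 the share was 10.0% and 22.1%, with a peak over the gene start of RMG1 in both libraries at folds of 8.94 and 5.36, where WT had peaks of 2.13 and 2.09. The intronic peak of RMG1 was listed in replicate 2 of ZF108DMS3 at a fold of 5.02 and was missing in replicate 1. H1 covered 0% in both WT lists, 0% and 2.52% in nrpe1 and 1.83% and 2.5% in ZF108DMS3, H3K9me2 covered 0% in all 4 lists, and SUVH1 covered 8.68% and 7.28%. The other members with the largest differences below WT in h1 were AT4G19500 (−8.86 points), AT1G53350 (−4.61), AT1G61300 (−4.11), AT5G40060 (−3.92), RPP1 (−3.83), AT1G58807 (−3.71) and AT3G44400 (−3.53). AT1G58807 is one of the genes without unique 50-base windows, and its direction turned with flanks of 5 kb (7.88 points). At AT3G44400 the difference was 0.014 points with flanks of 1 kb.

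**Figure D2:**
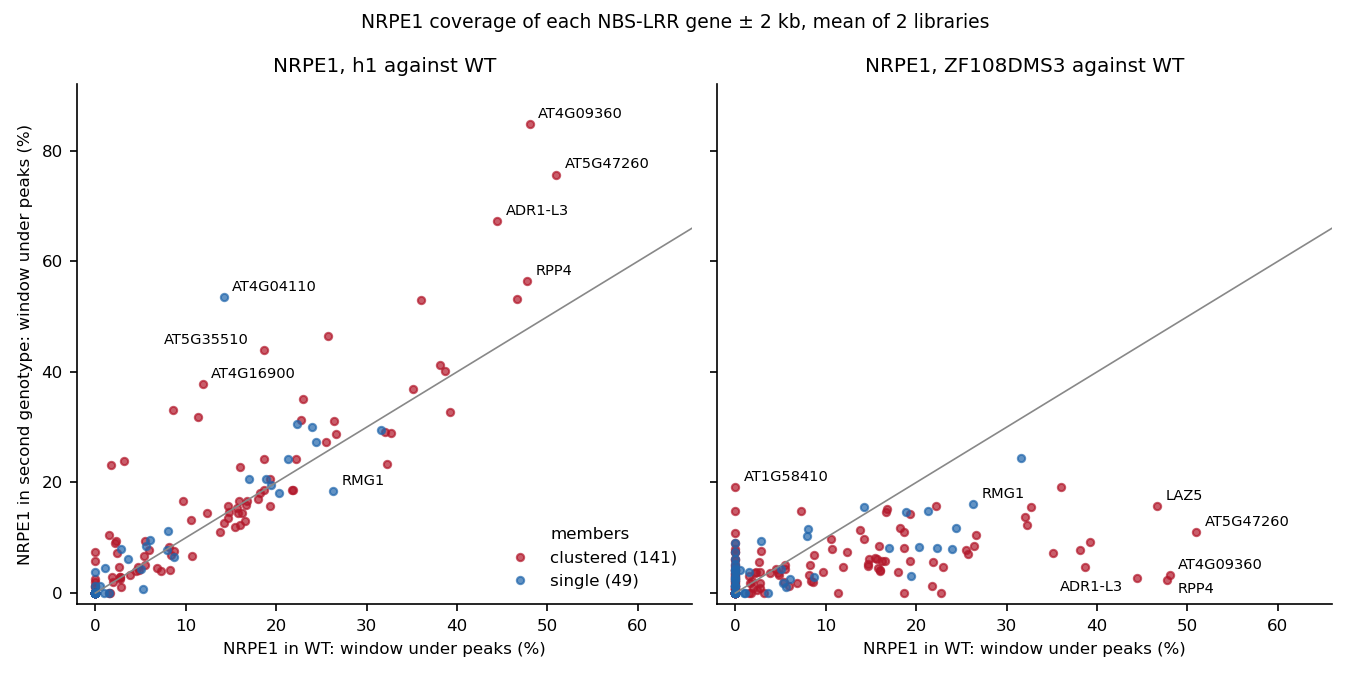
Share of the window of each member under NRPE1 peaks (%, mean of 2 libraries) in WT (x axis) against h1 (left) and ZF108DMS3 (right), with clustered members in red, single members in blue and the line of equal values in grey. AT4G04110, AT4G09360, AT5G47260 and ADR1-L3 lie far above the line in h1, and RPP4, AT4G09360, ADR1-L3 and AT5G47260 lie near the bottom in ZF108DMS3.

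The largest array, with 11 TIR-NBS members, runs from 9482429 to 9565569 on chromosome 4 and includes RPP4, SNC1, RPP5 and RLM3, a gene for resistance to fungi. NRPE1 covered 14.0% and 18% of the windows of the array in WT, 24.7% and 23.3% in h1 and 4.20% and 3.64% in ZF108DMS3. At RPP4 the share was 40.1% and 55.4% in WT against 55.9% and 57.0% in h1. Here h1 replicate 1 had a broad peak from 9484844 to 9492289 at a fold of 8.41, where the WT libraries had several separate peaks at RPP4, the strongest of 4.52 and 9.69 at the summit whose sequence is given above. RLM3, at the other end of the array, had 13.4% and 15% in WT against 13.1% and 12.4% in h1. The array at AT4G09360, which holds 4 members, had the largest NRPE1 share in h1 of the arrays of 4 or more members, at 56.8% and 54.7%. It had 33.1% and 29.9% in the WT libraries, and in ZF108DMS3 it had 7.17% and 7.28%. In the array of 7 members with RPS4 and RRS1, NRPE1 covered 8.68% and 10.1% in WT against 10.2% and 9.74% in h1. The array of 9 members at AT1G72840 had 4.23% and 5.55% in WT against 6.89% and 6.23% in h1. That of RPS6 and VICTR had 3.79% and 3.93% in WT, 5.10% and 5.44% in h1 and 3.23% and 0% in ZF108DMS3. The 6 members around AT1G63730 had 9.22% and 9.61% in WT against 9.21% and 8.56% in h1, and the 6 with LAZ5 and TTR1 had 13.5% and 15.7% in WT against 16.8% and 16.3% in h1.

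**Figure D3:**
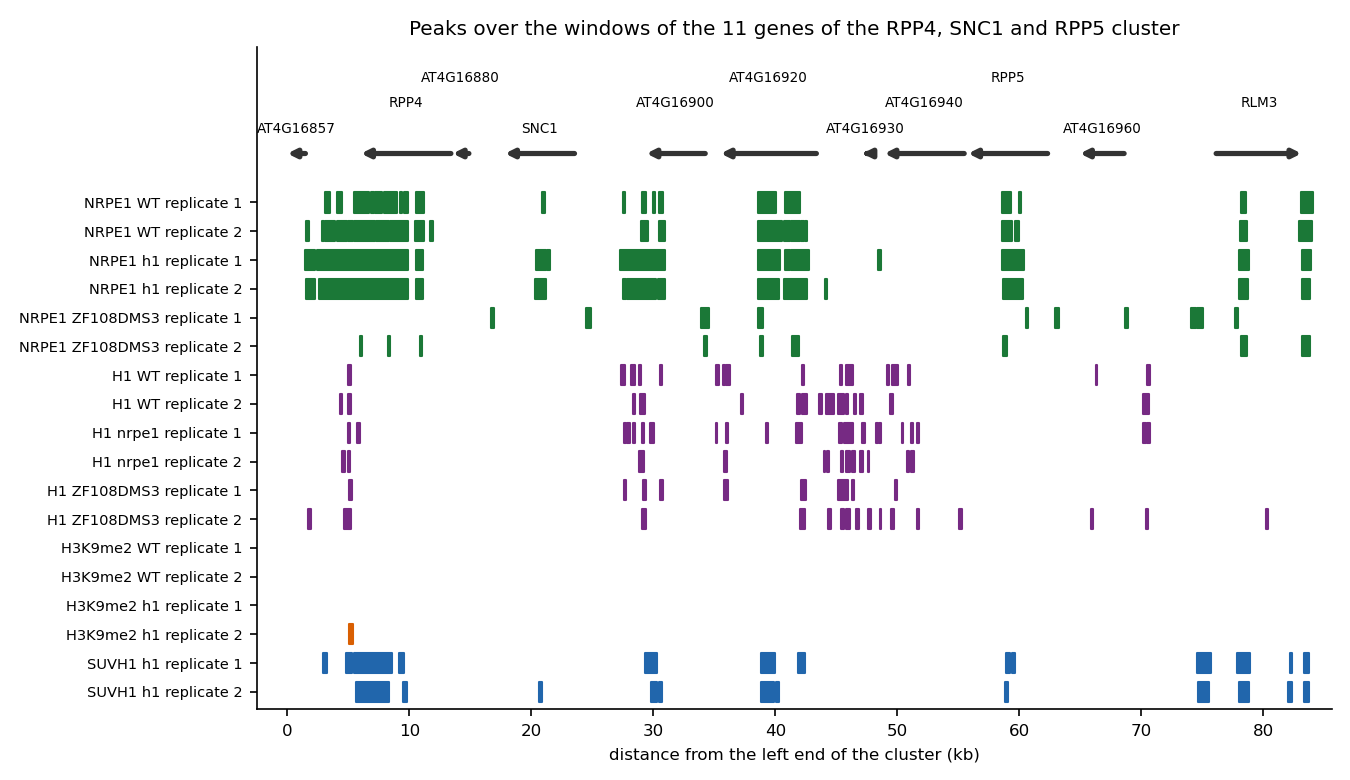
Peaks in the windows of the 11 members of the RPP4, SNC1 and RPP5 array in each of the 18 lists (bars; NRPE1 green, H1 purple, H3K9me2 orange, SUVH1 blue), with genes as arrows that point along transcription and distance from the left end of the array in kb on the x axis. The separate NRPE1 peaks of WT at RPP4 are joined into 1 broad peak in h1 and are nearly gone in ZF108DMS3, and H3K9me2 has 1 peak in 1 list.

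Of the members, 15 (7.89%) lie in 100-kb windows with at least 10% of their bases under H3K9me2 in WT, against 6.55% of all protein-coding genes. NRPE1 covered 19.8% and 19.4% of these windows in WT against 30.5% and 29.3% in h1. In the other 175 members the values were 7.84% and 8.35% in WT against 9.62% and 9.05% in h1. These 15 include AT4G04110, AT4G09360, AT4G09420, AT4G09430, AT5G35510 and LAZ5. Without the 15, the difference between h1 and WT over the receptor windows was 1.23 points in place of 1.90.

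In ZF108DMS3, NRPE1 peaks covered less of the receptor windows than in WT. The 4 largest differences lay at members among the 5 with the highest WT means. A fall in points cannot exceed the WT share, so this ranking is no separate result. The covered share was 4.90% and 4.92% in ZF108DMS3, a mean of 4.91% against 8.94% in WT. The difference of −4.03 points exceeds the 0.439 points by which the WT libraries lay apart, with p = 0.33 and adjusted p = 0.833 by the same two-sided exact permutation test. Over the gene alone the difference was −1.20 points. The WT libraries are the same as in the comparison with h1. A peak in both ZF108DMS3 lists was found for 87 members (45.8%), against 44.8% of all genes. The ratio of ZF108DMS3 to WT was 0.549 for members, 0.698 for the genes within 50 kb of a member, 0.741 for all protein-coding genes and 0.538 for the nuclear genome. In 74 members (38.9%) both ZF108DMS3 libraries lay below both WT libraries, and in 27 (14.2%) both lay above, against 28.0% and 22.4% of all genes. Over the 64 members with a peak in all 4 lists, the median of the highest fold was 4.94 and 7.86 in WT against 3.96 and 4.01 in ZF108DMS3.

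At RPP4, NRPE1 covered 40.1% and 55.4% of the window in WT against 0% and 4.67% in ZF108DMS3. At AT4G09360 the values were 55.3% and 40.8% in WT against 2.28% and 4.28% in ZF108DMS3. At ADR1-L3 they were 49.6% and 39.3% in WT against 0% and 5.29% in ZF108DMS3. These 3 genes thus had almost no window under peaks in ZF108DMS3. They were chosen among members without overlap between the groups. AT5G47260 had 6.32% and 15.6% in ZF108DMS3, and LAZ5 had 47.7% and 45.6% in WT against 7.07% and 24.4% in ZF108DMS3. The other differences of this size were at AT1G59218 (−33.9 points), AT1G58848 (−30.3) and AT2G17055 (−30.0), the first pair of which belong to the array without unique 50-base windows. At AT2G17055 the direction turned over the gene alone (0.386 points). AT4G04110 had 20.5% and 10.5% in ZF108DMS3 and 19.4% and 9.02% in WT, but the covered parts of the window differed. Of its 2 kb downstream, 55.6% and 20.45% lay under peaks in ZF108DMS3 against 8.2% and 0% in WT. The strongest peak at AT4G04110 in ZF108DMS3 lay downstream of the gene, with its summit 2444 and 2475 bp from the gene start at folds of 10.8 and 6.16.

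NRPE1 was gained in ZF108DMS3 at 21 members (11.1%), against 17.1% of all genes, so receptor genes did not stand above the background. They included SUMM2, RLM1, RPM1, ZAR1, ADR1-L2, AT1G12290, AT1G15890, AT1G17615, AT1G58400, AT1G58410, AT1G63740, AT1G72840, AT3G51560, AT4G23440, AT4G36150, AT5G11250, AT5G45490, AT5G49140 and AT5G56220. Of the 21, 9 are CC-NBS, 10 TIR-NBS and 2 neither, and 13 are clustered. SUMM2, which monitors a MAP kinase cascade, had 4.62% and 5.07%. RPM1, a second guard of RIN4, had 5.91% and 3.27%. ZAR1, which assembles into a resistosome, had 2.83% and 2.30%, and ADR1-L2 had 7.31% and 3.17%. All of these had 0% in both WT and both h1 lists. The largest gains were at AT1G58410 (27.1% and 11.2%), AT5G45490 (19.1% and 10.7%) and AT1G17615 (16.1% and 5.66%). CSA1 was not gained by this rule but lay above WT, at 14.6% and 15% against 4.67% and 9.94%. Lost in ZF108DMS3 were 6 members (3.16%, against 2.8% of all genes), namely AT1G58390, AT2G20142, AT4G16857, AT5G35510, AT5G46500 and AT5G51630. Without replicate 2 of ZF108DMS3, 48 members were gained and 20 lost, or 68 in place of 27, and the count was at least 29 without any one library.

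Counted per library, NRPE1 summits lay near the gene start at more members in ZF108DMS3 than in WT or h1, but the number with such a summit in both lists was the same in ZF108DMS3 and WT. A summit within 500 bp of the start was listed for 24 and 29 members in WT, 18 and 17 in h1 and 50 and 35 in ZF108DMS3. The ZF108DMS3 values are 26.3% and 18.4% of members, against 25.0% and 18.7% of all protein-coding genes. Both lists held such a summit for 22 members in WT, 16 in h1 and 22 in ZF108DMS3 (11.6%, 8.42% and 11.6%), against 9.69%, 8.74% and 13.4% of all genes. Averaged over both libraries, coverage of members was highest in the 100-bp bin 500 bp upstream in WT (16.7%), 1200 bp upstream in h1 (19.3%) and 100 bp upstream in ZF108DMS3 (12.4%). A summit this close to the start in both lists of ZF108DMS3 but neither list of WT was seen at 10 members (5.26%, against 9.27% of all genes), among them RPS2, SUMM2, ADR1-L2, AT1G31540, AT1G58400, AT1G58410, AT4G16900, AT4G23440 and AT5G49140.

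**Figure D4:**
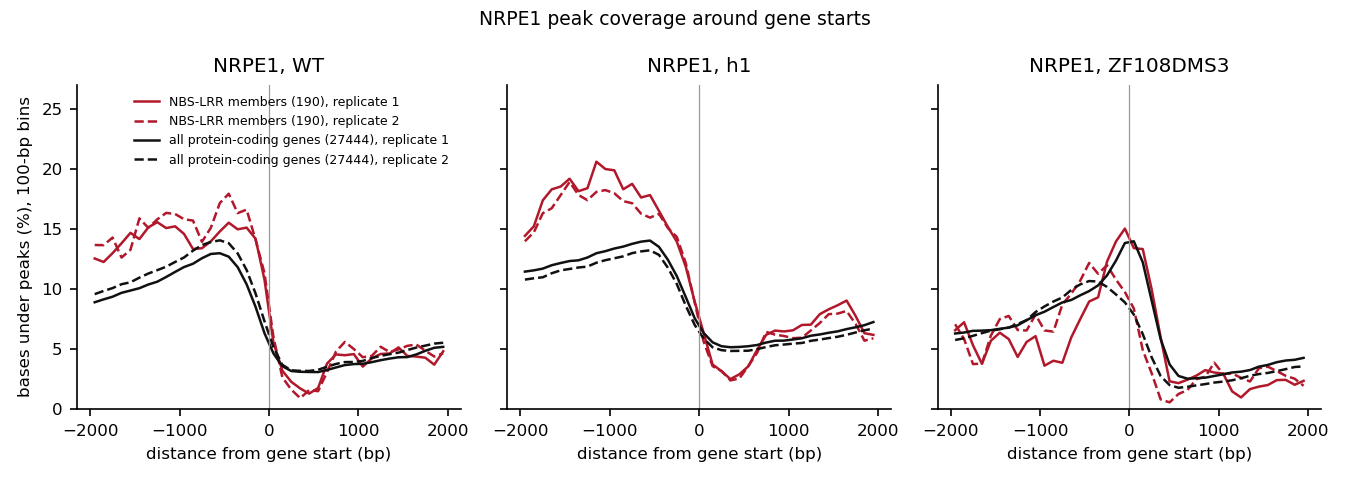
Bases under NRPE1 peaks (%) in 100-bp bins from 2 kb upstream to 2 kb downstream of the gene start, for the 190 members (red) and all protein-coding genes (black), replicate 1 solid and replicate 2 dashed. In WT and h1 the members lie above all genes upstream of the start, with tops of 16.7% and 19.3%, and in ZF108DMS3 both sets have their top at the start.

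Receptor genes carried H1 peaks more often than genes at large did, counted by any overlap with the window. They are also longer, at a median of 3908 bp against 2078 bp, and the part of length in this was not tested. In WT, H1 covered 3.66% and 5.27% of the member windows, a mean of 4.46% against 3.72% for all protein-coding genes and 2.53% for genes within 50 kb. The replicates lay 1.61 points apart, which is more than the difference from all genes. A peak in both lists was found for 69 members (36.3%) in WT, 67 (35.3%) in nrpe1 and 71 (37.4%) in ZF108DMS3, against 17.9%, 17.0% and 18.8% of all genes, and 18 members had H1 peaks in both lists of all 3 genotypes and no other paired peaks. H1 covered 4.11% and 6.14% of the genes, 3.13% and 5.12% of the upstream flanks and 3.57% and 4.21% of the downstream flanks. The highest shares were at AT4G04110 (66.8% and 62.2%), AT4G09360 (46.4% and 53.7%), AT4G27190 (30.6% and 46.2%) and AT5G18360 (35.9% and 29.0%). AT5G18360 had no NRPE1 peak in any list. No H1 peak was listed in WT for RMG1, LAZ5, SNC1, RPP5, RLM3, RPM1, RPS2, RPS6, RRS1, ZAR1, CSA1 and ADR1-L2. In WT, 41 members carried both NRPE1 and H1 in both lists, which is 43.6% of those with NRPE1 and 59.4% of those with H1. Over all protein-coding genes these shares were 27.2% and 59.7%. By bases of the member windows, the overlap was 6.28% and 6.25% of the NRPE1 bases and 15% and 10.9% of the H1 bases, where H1 covered 3.66% and 5.27% of all bases of the windows and NRPE1 8.72% and 9.16%.

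In nrpe1, H1 coverage of the receptor windows lay within the range of the WT replicates, at 4.23% and 4.26%. The difference of −0.218 points is below the gap of 1.61 points in WT (exact permutation test, two-sided, p = 1, adjusted p = 1), and without WT replicate 2 it was 0.585 points. In 14 members both nrpe1 libraries lay above both WT libraries and in 13 both lay below (7.37% and 6.84%, against 4.08% and 4.77% of all genes). H1 was gained at AT1G27180 and AT2G20142 (0.896% of all genes) and lost at AT1G65850, AT4G27220 and AT5G41550 (1.57%). Without any one library the count of gained or lost members was 15 to 18 in place of 5. AT4G04110 had 66.8% and 62.2% in WT against 84.3% and 84.0% in nrpe1. AT4G27190 had 30.6% and 46.2% in WT against 47.4% and 47.2% in nrpe1, and AT5G35510 had 4.94% and 9.90% in WT against 19.2% and 13.2% in nrpe1. These 3 genes were chosen among members where both nrpe1 libraries lay above both WT libraries. In the opposite direction, AT5G18360 had 35.9% and 29.0% in WT against 13.7% and 26.7% in nrpe1, and AT3G51570 had 13.7% and 19.3% in WT against 6.82% and 6.61% in nrpe1. Members with and without NRPE1 in WT were found in both directions. Of those above WT, AT4G04110 and AT4G27190 had NRPE1 in WT, and AT1G50180 and AT3G14470 had none. Of those below WT, AT2G17060 and AT1G65850 had NRPE1 in WT, and AT5G18360 and AT3G51570 had none. The other differences below WT were between −10.6 points at AT2G17060 and −3.8 points at AT3G51560.

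In ZF108DMS3, H1 covered 4.56% and 5.38% of the receptor windows, 0.510 points above WT, again less than the gap in WT (two-sided exact permutation p = 0.667, adjusted p = 1). Without WT replicate 1 the difference was −0.294 points. Both libraries lay above WT in 16 members (8.42%) and below in 11 (5.79%), against 4.94% and 3.95% of all genes. H1 was gained at RMG1, LAZ5, VICTR, AT1G63360 and AT2G20142 (1.24% of all genes) and lost at AT4G19510 and AT5G38350 (1.12%). Without any one library the count was 13 to 26 in place of 7, with 26 without WT replicate 1. The largest difference was at AT5G35510, with 21.7% and 23.0% against 4.94% and 9.90% in WT. CHS1, whose mutant is sensitive to chilling, had 20.7% and 15.4% against 4.91% and 11%. CHS1 overlaps AT1G17600, which had 16.8% and 12.5% against 3.98% and 8.91%, so these genes share H1 peaks. Of the members gained for NRPE1 in ZF108DMS3, RPM1, ZAR1, AT4G23440 and AT5G45490 had no H1 peak in any list. AT5G11250, also gained for NRPE1, had 3.8% and 0% of its window under H1 in WT, 7.90% and 4.70% in nrpe1 and 8.70% and 9.51% in ZF108DMS3.

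H3K9me2 was rare over receptor genes. It covered 0.622% and 1.43% of the member windows in WT, against 2.36% as the mean over all protein-coding genes, and 1.04% and 1.21% in h1. The difference of 0.0964 points is smaller than the 0.810 points by which the WT libraries lay apart, with p = 1 and adjusted p = 1 by the two-sided exact permutation test, and without WT replicate 1 it was −0.309 points. A peak in both lists was found for 11 members (5.79%) in WT, and for 12 (6.32%) in h1, against 4.28% and 4.22% of all genes. AT4G04110 had 55.9% and 69.4% in WT against 71.6% and 63.1% in h1, and AT4G09360 had 29.4% and 59.4% in WT against 41.7% and 57.3% in h1. Both carried broad H3K9me2 in h1, with overlapping groups, while their NRPE1 shares did not overlap, which was a condition of their choice. No member was gained (0.186% of all genes), and AT5G47250 and AT5G47260 were lost (0.277%). At AT5G47260 the WT values were 4.11% and 45.6%, so the difference to the 0% of both h1 lists rests on WT replicate 2. Without any one library, 2 to 4 members were gained or lost. In 3 members both h1 libraries lay above WT and in 3 both lay below (1.58% each, against 0.554% and 1.69% of all genes). Those above WT were ADR1, with 2.27% and 0% in WT against 5.2% and 10.2% in h1, and the neighbours AT1G57630 and AT1G57650. AT1G57630 had 0% and 6.45% in WT against 12.2% and 30.1% in h1, next to NRPE1 values of 29.0% and 22.5% in WT against 47.0% and 46.0% in h1.

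**Figure D5:**
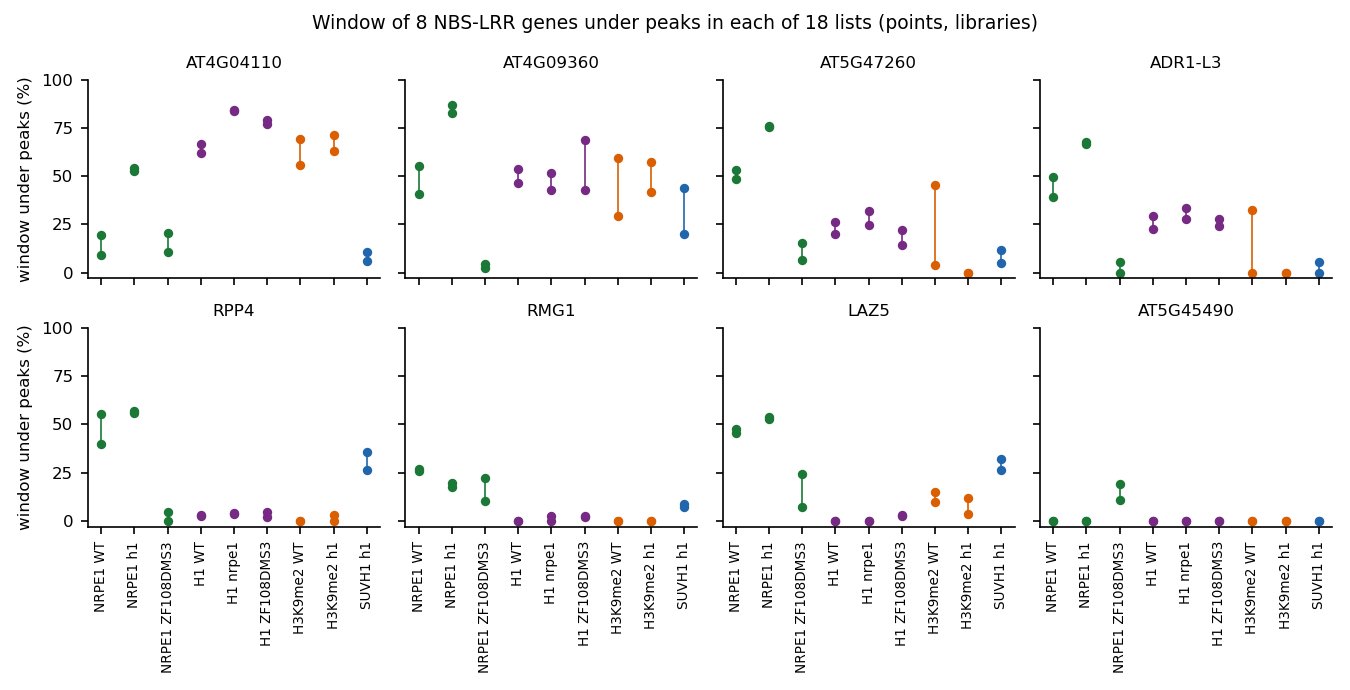
Share of the window under peaks (%) of 8 members in all 18 lists, with points for libraries joined within a group and the 9 combinations of antibody and genotype on the x axis. AT4G04110 and AT4G09360 carry H1, H3K9me2 and SUVH1 beside NRPE1, RPP4 and RMG1 carry NRPE1 and SUVH1 with little H1, LAZ5 carries NRPE1, SUVH1 and H3K9me2 with little H1, and AT5G45490 has peaks only in NRPE1 of ZF108DMS3 (19.1% and 10.7%).

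SUVH1, measured in h1 alone, covered 4.71% and 4.27% of the receptor windows, and 55 members (28.9%) had a peak in both lists, against 22.3% of all genes. The highest means were at AT4G09420 (46.2%), AT4G09360 (32%), RPP4 (30.9%), ADR1-L1 (30.7%) and LAZ5 (29.2%). Of the 55 members, 54 also had NRPE1 in both h1 lists, which is 98.2% of the members with SUVH1 and 52.9% of the 102 with NRPE1. Over all protein-coding genes the shares were 94.0% and 50.7%. Within the member windows, 86.8% and 83.6% of the SUVH1 bases lay under NRPE1 peaks of h1 (replicates 1 and 2). All 12 members with H3K9me2 in both h1 lists had SUVH1 in both lists, against 78.9% of all genes with H3K9me2 in both h1 lists. RLM3 had 25.0% and 21.8% of its window under SUVH1, ADR1 13.1% and 11.1%, and AT4G19510 25.0% in both. SUVH1 was low at AT4G04110, at 6.10% and 10.5%, where NRPE1 in h1 was high.

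Clustered members carried more NRPE1 than single members in WT and h1 and about the same share in ZF108DMS3. The values for clustered members were 9.70% and 10.2% in WT, 12.5% and 11.9% in h1 and 4.58% and 4.99% in ZF108DMS3. Single members had 6.41% and 6.63% in WT, 8.02% and 7.39% in h1 and 5.67% and 4.75% in ZF108DMS3. The ratio of h1 to WT was 1.22 for clustered and 1.18 for single members, so differences in points partly follow the higher WT share of clustered members. The ratio of ZF108DMS3 to WT was 0.480 for clustered and 0.799 for single members. The difference between ZF108DMS3 and WT was −5.18 points for clustered and −1.31 points for single members, and these differences differed by −3.87 points (exact permutation test, two-sided, p = 0.33, 1 of 5 such tests). For h1 they were 2.2 and 1.19 points and differed by 1.02 points (exact permutation test, p = 0.33), which turned to −0.202 points with a gap of at most 200 kb as the definition of a cluster. For H1 they differed by −0.723 points between nrpe1 and WT and by −0.758 points between ZF108DMS3 and WT, both within the gap of 1.05 points in WT. Of the clustered members, 20 (14.2%) had few unique 50-base windows, against 1 (2.04%) of the single members. Over all members, leaving out those under 80% gave an NRPE1 difference of −3.25 points in place of −4.03 for ZF108DMS3. For h1 it gave 1.96 points in place of 1.90. The part of uniqueness in the differences between clustered and single members was not tested.

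All 3 classes went the same way in NRPE1. TIR-NBS members had 9.15% and 9.73% of their windows under peaks in WT, 11.9% and 11.2% in h1 and 5.16% and 5.04% in ZF108DMS3. CC-NBS members had 9.32% and 9.37% in WT, 11.2% and 10.7% in h1 and 4.52% and 5.31% in ZF108DMS3. The other members had 6.60% and 6.53% in WT, 8.48% and 8.07% in h1 and 3.90% and 3.63% in ZF108DMS3. CC-NBS members carried little H1, at 1.38% and 2.55% in WT, against 4.12% and 6.0% in TIR-NBS members and 5.2% and 6.22% in the others. By part of the window, NRPE1 in h1 covered 16.8% and 16.0% of the upstream flanks, 5.36% and 4.98% of the genes and 15% and 14.3% of the downstream flanks, each above its WT values. In ZF108DMS3 the shares were 6.87% and 7.90%, 3.12% and 2.07%, and 6.07% and 6.39%, each below WT.

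Among 13 genes that act with these receptors, 6 had NRPE1 in both WT lists, 7 in both h1 lists and 6 in both ZF108DMS3 lists. Of all protein-coding genes, 39.4%, 41.4% and 44.8% did. None of the 13 had an H3K9me2 peak, where 4.28% of all genes had one in both WT lists. EDS1, the hub of TIR signalling, had no NRPE1 peak in WT or h1 and 14.7% and 7.10% of its window under peaks in ZF108DMS3. NDR1, which many CC receptors need, had 16.2% and 13.5% in WT, 11.7% and 12.7% in h1 and 46.7% and 21.8% in ZF108DMS3. RIN4, guarded by RPM1 and RPS2, had 18.5% and 25.8% in WT, 27.9% and 26.7% in h1 and 13.6% and 15.1% in ZF108DMS3. The co-chaperone SGT1A was gained in h1, at 6.62% and 6.12%. CPR1, an F-box protein that lowers receptor levels, had 22.9% and 22.0% in WT, 17.5% and 17.0% in h1 and 6.58% and 18.2% in ZF108DMS3. RAR1 had no peak in any list, and SGT1B had 1 H1 peak in 1 list.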

How the data were processed

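Peak lists of 18 ChIP-seq libraries were used, with replicate numbers from the labels, and 16 of the 34 samples (H3 ChIP and bisulfite sequencing) were not used here. The authors mapped reads to TAIR10 with Bowtie2 2.1.0, kept uniquely mapping reads without mismatch, removed duplicates with SAMtools and called peaks per library with MACS2 2.1.1, and the control used for calling is not given in the sources used here. The deposited lists give for each peak its fold enrichment, −log10 p and −log10 q as MACS2 wrote them, and the distance of the summit from the peak start. The lowest −log10 q in the deposited lists was 1.30. Depth is not given, so no counting interval could be computed. Organelle peaks, which occur in the H3K9me2 lists, were left out.

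The main measure was the percentage of bases of the gene and 2 kb on both sides under peaks, with overlapping windows counted once. Genes came from TAIR10.1, and no peak end lay beyond a chromosome end of that build. A peak counted for a gene at an overlap of at least 1 bp. Groups were compared by exact permutation tests over libraries, two-sided, and p-values were adjusted by the method of Benjamini and Hochberg over the 5 comparisons. Named members were those of known role, up to 8 with the largest difference in each direction per comparison without overlap of the groups, the 5 with the highest mean per group and the 6 largest clusters, and any other name was chosen after its values were seen. The members and lists were chosen with earlier results of these data known. One gene that meets the wording of the rule was left out by the rule. Overlap with transposable elements was not used here. Some members are counted but not reported by name here. Alternatives were peaks with −log10 q from 3 upward, lists trimmed to equal length, the gene alone or with 1 or 5 kb, summits in place of peaks, 200 bp as the overlap, members by product alone, other cluster gaps, a replicate block and leaving out each library. Scripts in Python 3.11.15 with numpy 2.4.6, pandas 2.3.3 and matplotlib 3.10.9 were tested on simulated data.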

Additional observations from a re-analysis of the deposited data

How the results depend on the processing

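The NRPE1 difference in coverage of the receptor windows kept its direction under each alternative run, at 1.59 to 2.21 points for h1 and −4.25 to −3.81 points for ZF108DMS3 without any one library, but it was −1.20 points for ZF108DMS3 over the gene alone and 1.23 points for h1 without members in H3K9me2-rich windows. The H1 and H3K9me2 differences did not. H1 in nrpe1 was 0.294 points above WT with an equal number of peaks per list and ranged from −1.02 to 0.585 points without one library, and H1 in ZF108DMS3 ranged from −0.294 to 1.31 points. H3K9me2 in h1 was −0.130 points over the gene alone, −0.0754 points with 1 kb and −0.309 to 0.501 points without one library. The difference between clustered and single members in NRPE1 of h1 was −0.202 points at a gap of 200 kb.

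Of the counts of gained or lost members, NRPE1 in h1 (4) was 7 over the gene alone, 2 with 5 kb, 8 by summits, 2 without members under 80% unique 50-base windows and 6 to 9 without one library. NRPE1 in ZF108DMS3 (27) was 29 to 68 without one library. H1 in nrpe1 (5) was 2 at 200 bp and 15 to 18 without one library, and H1 in ZF108DMS3 (7) was 13 to 26. H3K9me2 in h1 (2) was 4 at a −log10 q of at least 3, 1 over the gene alone, 1 with members by product alone, 4 at 200 bp and 2 to 4 without one library. With a library left out, fewer lists have to meet the rule, and for the other settings the cause was not tested.

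Named members turned direction over the gene alone at AT5G35510 (NRPE1 in h1, −6.0 points), AT2G17055 (NRPE1 in ZF108DMS3, 0.386) and AT3G51560 (H1 in nrpe1, 2.39). With 1 kb AT3G44400 was at 0.0140 (NRPE1 in h1), and with 5 kb AT1G58807 was at 7.88 (NRPE1 in h1), AT3G14470 at −5.00 (H1 in nrpe1) and AT5G38344 at 2.1 (H1 in ZF108DMS3). At a −log10 q of at least 3, AT5G11250 was at −0.882 and AT3G14460 at 3.65 (H1 in nrpe1) and AT5G38344 at 2.92 (H1 in ZF108DMS3), and with equal peak numbers AT3G14460 was at 3.43. For the 70 results on named members, 676 of 801 values differed from the main value by less than the larger SD of the 2 groups. A further 114 moved more without a turn, and 11 turned. The settings without members of low uniqueness, without members in H3K9me2-rich windows and with stricter SUVH1 peaks were chosen after seeing the data.

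The labels give the same replicate numbers to the groups. Deviations of replicates from their group means correlated across genes at 0.357, 0.120, 0.0262, 0.122 and 0.0567 in the 5 comparisons, over only 2 pairs, which cannot show whether the numbers pair the libraries, and no label says that they do. With the replicate number as a block the differences were the same, for example 1.90 points for NRPE1 in h1, and the exact permutation p was 0.5 to 1, where 0.5 is the smallest possible. Peak lists carry no depth, which limits every statement on the absence of a peak.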
